A study of Mus musculus with 6 samples.

Results

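The replication-dependent histone genes were followed through the 6 RNA-seq libraries of the series. Members were the genes whose name in the deposited tables begins with Hist1h, Hist2h, Hist3h or Hist4h, which gave 44 of 48733 named genes, and FPKM (fragments per kilobase of transcript, scaled to the aligned reads of the library) was summed by name. They comprised 4 genes for the linker histone H1 and 17 for H2A, 9 for H2B, 6 for H3 and 8 for H4, the core histones. The strain was CC016/GeniUnc, an inbred line of the mouse Collaborative Cross, and femora of 3 mice were used. The 3 libraries labelled bone were from femora after the marrow was taken out, with no treatment given in the labels. The 3 libraries labelled osteoblasts were from stromal cells (BMSCs) that had attached after plating of that marrow. These were kept for 8 days in medium with dexamethasone at 10 nM, beta-glycerophosphate at 10 mM and ascorbic acid at 50 µg/ml, which lead stromal cells to form mineralizing osteoblasts. Neither label gives the age or sex of the mice, and no genetic alteration was listed for either group.

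Histones are the proteins that DNA is wrapped around. Cells make most of them in S phase, when new DNA has to be packaged, from genes that lie in clusters and are transcribed together. The mRNAs of these genes are unusual in that they end in a conserved stem-loop in place of a poly(A) tail. The stem-loop-binding protein SLBP holds this end and couples the mRNA to S phase. A few members also give polyadenylated transcripts, and *Hist1h1t*, *Hist1h2aa* and *Hist1h2ba* are known as testis types. The study describes its sequencing as covering RNA with and without a poly(A) tail, whereas the library kit it names is known for a poly(A) selection step. The sources used here do not settle whether that step was done, and the FPKM of mRNAs without a tail depends on it. Abundant RNAs without a tail were in every library, and *Rn7sk*, a small nuclear RNA that holds back transcription elongation, measured 13042 FPKM or more in each.

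The stem-loop is shown first because it is the shared 3′ end of these mRNAs. In the GENCODE vM1 coding transcripts, which belong to the older build NCBIM37, 41 members were found by name and 22 of them held the 16-base histone stem-loop consensus. It was in 22 of the 29 members with at least 40 bases of annotated sequence after the stop codon, and in 0.0848% of all 55443 coding transcripts. Models that stop at or near the stop codon cannot show it. The search also held most of the 16 bases fixed, so a stem-loop with other bases, such as a loop ending in A, would be missed. The matches took 5 forms, given here 5′ to 3′ with the bases of the stem in capitals and the loop in lower case.
15 members of types H1, H2A, H2B and H3, among them Hist1h1c, Hist1h2ab, Hist1h2bg and Hist1h3h: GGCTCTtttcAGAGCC
Hist2h2ac: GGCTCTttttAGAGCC
Hist1h4f, Hist1h4h and Hist1h4n: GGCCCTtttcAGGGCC
Hist1h4i and Hist2h4: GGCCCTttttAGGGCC
Hist1h4b: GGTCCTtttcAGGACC
The 6 H4 genes with a match all had a stem that differed from the one shared by the other types. In *Hist1h1c*, *Hist1h2ac*, *Hist2h4* and *Hist3h2a* the annotated transcript went on for 839, 2010, 1235 and 1487 bases past the stem-loop. *Hist2h2be*, with 2192 annotated bases after its stop codon, held no match, which does not show that it lacks a stem-loop.

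The promoters are shown because the members followed 1 order of libraries, as given below. RefSeq promoter windows of GRCm38.p6, 250 bases before to 50 after each start, were found for 38 members. On either strand the letters CCAAT were in 31 of the 38 and TATAAA in 21, against 37.4% and 13.6% of all 32851 windows. The split followed histone type: CCAAT was in all 31 windows of H1, H2A, H2B and H3 genes and in 0 of 7 windows of H4 genes. The octamer ATTTGCAT, known from H2B promoters, was in 6 of 15 H2A windows, 2 of 6 H2B windows and none of the others, against 1.74% of all windows. Windows of divergent H2A and H2B neighbours overlap and are therefore not independent. The 120 bases before the start follow for 1 abundant member of each type whose feature covers 1 RefSeq histone gene, and for the testis type *Hist1h1t*. CCAAT and TATAAA on either strand are in capitals.
Hist1h1b, chr13:21780626-21780745, minus strand: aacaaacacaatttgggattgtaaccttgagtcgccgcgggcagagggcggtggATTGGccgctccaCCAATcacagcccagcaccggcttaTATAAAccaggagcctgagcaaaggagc
Hist1h2ak, chr13:21753913-21754032, minus strand: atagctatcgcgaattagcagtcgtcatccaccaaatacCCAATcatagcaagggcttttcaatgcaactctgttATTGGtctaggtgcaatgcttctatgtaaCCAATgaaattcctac
Hist1h2bl, chr13:21716184-21716303, minus strand: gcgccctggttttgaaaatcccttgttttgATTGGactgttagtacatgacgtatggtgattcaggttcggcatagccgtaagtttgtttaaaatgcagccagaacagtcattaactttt
Hist1h3i, chr13:21783398-21783517, minus strand: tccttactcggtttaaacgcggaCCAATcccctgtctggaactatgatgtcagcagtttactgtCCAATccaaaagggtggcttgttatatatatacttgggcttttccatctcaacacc
Hist1h4k, chr13:21750554-21750673, minus strand: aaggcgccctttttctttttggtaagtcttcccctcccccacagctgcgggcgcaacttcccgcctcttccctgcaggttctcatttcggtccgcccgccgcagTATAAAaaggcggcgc
Hist1h1t, chr13:23695691-23695810, plus strand: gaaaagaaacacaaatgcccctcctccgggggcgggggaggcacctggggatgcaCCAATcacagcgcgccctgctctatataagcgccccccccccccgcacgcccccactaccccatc
In *Hist1h1b* the TATAAA begins 28 bases before the start, and CCAAT lies on both strands within 66 bases of it. The *Hist1h1t* stretch has 1 CCAAT, and it holds a TATATAA that the TATAAA search does not count. A match is a description of letters and does not show that a factor binds there.

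Before the values, the libraries have to be set beside their labels. Depth, read from the ratio of coverage to FPKM, was 13.6 to 22.6 M aligned read pairs. At that depth 3 pairs on a transcript of 400 bases correspond to an FPKM between 0.332 and 0.553, a floor that covers counting error only. *Hbb-bt*, an adult beta-globin gene of red cell precursors, was above 1000 FPKM in 3 libraries that cross the labels: bone replicate 3 (34838), osteoblasts replicate 2 (34268) and osteoblasts replicate 3 (48650). It measured 7.05, 3.58 and 3.43 FPKM in bone replicate 1, bone replicate 2 and osteoblasts replicate 1. Osteoblast markers did not move as one. *Col1a1*, a collagen chain of bone matrix, was at 1499 FPKM or more in each library. *Ibsp*, a sialoprotein of bone matrix, measured 1278, 986 and 43.1 FPKM in bone replicates 1 to 3 and 1004, 78.2 and 91.3 in osteoblasts replicates 1 to 3. *Bglap2*, an osteocalcin gene, went the other way, with 264, 383 and 1959 in bone and 513, 1889 and 1641 in osteoblasts. Features without a gene name took 71.5% of the summed FPKM in bone replicate 2 and 65.0% in osteoblasts replicate 1, against 27.4 to 30.7% in the other libraries. These values go against a split by label: 1 library labelled bone resembles 2 labelled osteoblasts in *Hbb-bt*, and 1 labelled osteoblasts resembles 2 labelled bone. Whether the labels are right was not tested. Each library is named by its deposited label, and comparisons of bone with osteoblasts take those labels as given.

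The histone genes were among the most abundant transcripts of the 3 libraries with *Hbb-bt* above 1000 FPKM and were far lower in the other 3. Summed over the 44 genes, FPKM was 1676 in bone replicate 1, 679 in bone replicate 2 and 59301 in bone replicate 3. The sum was 762 in osteoblasts replicate 1, 56520 in osteoblasts replicate 2 and 40036 in osteoblasts replicate 3. Bone replicate 3 and osteoblasts replicates 2 and 3 are called the high libraries below and the other 3 the low libraries, as a description of these values only. Each label held both kinds, and the labels overlapped. Bone replicate 3 was 35.4 times bone replicate 1 and 87.3 times bone replicate 2. Osteoblasts replicates 2 and 3 were 74.1 and 52.5 times osteoblasts replicate 1. As a share of the FPKM of all named genes, which leaves the unnamed features out, the members took 0.282, 0.191 and 6.77% in bone replicates 1 to 3, and 0.195, 6.57 and 4.86% in osteoblasts replicates 1 to 3. The 500 genes of highest FPKM included 38, 39 and 37 of the 44 members in bone replicate 3 and osteoblasts replicates 2 and 3, and 3 or 4 in the other libraries. In bulk RNA, fewer cells that express a gene and less RNA per cell cannot be told apart.

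**Figure D1:**
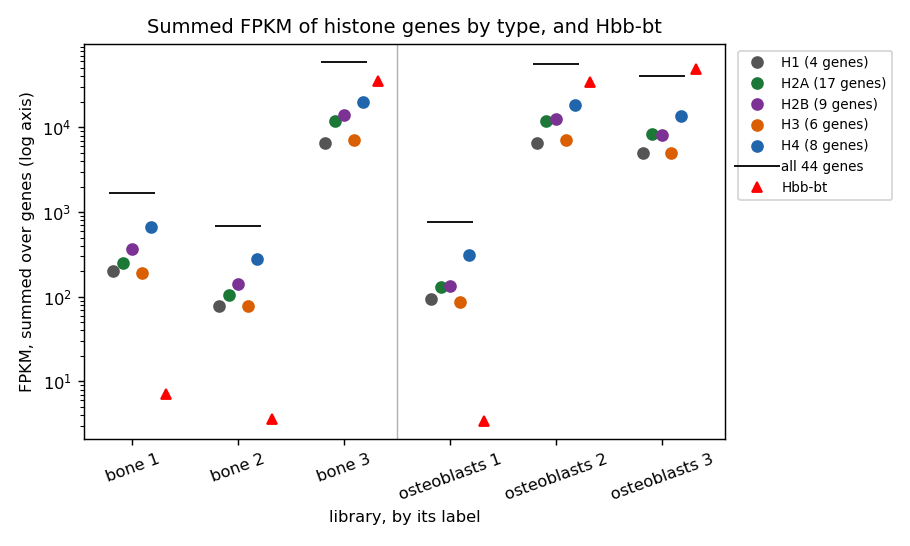
Summed FPKM (log axis) of the H1, H2A, H2B, H3 and H4 genes (dots), of all 44 genes (black bars) and of *Hbb-bt* (triangles) in each of the 6 libraries, by label. The 3 libraries with *Hbb-bt* above 1000 FPKM have histone sums of 40036 to 59301, and the other 3 have sums of 679 to 1676.

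All types followed this order of libraries, but not to the same extent. H4, the most conserved core histone, had the largest summed FPKM in every library when all features were counted, with 657, 277 and 19780 in bone replicates 1 to 3 and 315, 18456 and 13615 in osteoblasts replicates 1 to 3. H2A summed to 253, 106 and 11900 in bone and to 132, 11842 and 8275 in osteoblasts. H2B summed to 370, 140 and 13986 in bone and to 134, 12611 and 8232 in osteoblasts. Merged features weigh in these sums. Over features with 1 RefSeq histone gene, H2A was above H4 in the high libraries, at 9752, 9648 and 6796 against 9208, 8866 and 6342 in bone replicate 3, osteoblasts replicate 2 and osteoblasts replicate 3. In the low libraries H4 stayed above, at 299, 131 and 149 against 186, 81.2 and 101. As a share of all histone FPKM, merged features included, H4 took 39.2, 40.9 and 41.3% in the low libraries (bone replicates 1 and 2 and then osteoblasts replicate 1), and 33.4, 32.7 and 34.0% in bone replicate 3 and osteoblasts replicates 2 and 3. The share of H2A went the other way, with 15.1, 15.6 and 17.3% in the former libraries and 20.1, 21.0 and 20.7% in the latter. H3 stayed between 11.4 and 12.5% and H1 between 11.0 and 12.4% in all 6. These shares were not tested, since the order of libraries they follow was read from the data.

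Among H4 genes, *Hist1h4f* had the highest FPKM of all members in every library, with 189, 73.7 and 6233 in bone replicates 1 to 3 and 86.3, 5928 and 4393 in osteoblasts replicates 1 to 3. Its feature, however, runs over 209973 bases and the positions of 22 RefSeq histone genes on either strand, some with features of their own. Its level can therefore not be assigned to *Hist1h4f* alone. *Hist1h4h* is likewise merged, over 14 genes, and measured 73.1 to 169 FPKM in the 3 low libraries and 2880 to 4338 in the 3 high ones. *Hist1h4k* has a feature of 312 bases over 1 RefSeq histone gene (chr13:21750194-21750505, minus strand). That feature overlaps 2 others, and 68.1% of the 75-base stretches of its coding sequence are found in 10 other H4 genes, so its level is uncertain too. *Hist1h4k* measured 85.4, 39.1 and 3320 FPKM in bone replicates 1 to 3 and 42.3, 3262 and 2280 in osteoblasts replicates 1 to 3. *Hist1h4n* followed with 90.7, 38.5 and 2547 in bone and 43.0, 2405 and 1739 in osteoblasts. The H4 genes outside the large chromosome 13 cluster were lower but kept the order of libraries: *Hist2h4* on chromosome 3 reached 321 FPKM and *Hist4h4* on chromosome 6 reached 240.

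For H2A, *Hist2h2ac* on chromosome 3 had the highest mean, with a feature over 4 histone genes, and measured 24.8 to 67.0 FPKM in the low libraries and 1478 to 2195 in the high ones. *Hist1h2ab* measured 29.1, 11.6 and 1623 FPKM in bone replicates 1 to 3 and 14.4, 1555 and 1162 in osteoblasts replicates 1 to 3. *Hist1h2ak* measured 23.9, 9.04 and 1478 in bone and 12.4, 1367 and 1041 in osteoblasts, and *Hist1h2ai* was close to it, with 27.9, 10.8 and 1247 in bone and 14.4, 1288 and 896 in osteoblasts. *Hist1h2af* reached 1220 FPKM in osteoblasts replicate 2 from 11.8 in osteoblasts replicate 1. Lower members of the type included the pseudogenes *Hist1h2aj* and *Hist1h2al*, at most 174 and 94.2 FPKM. The testis type *Hist1h2aa* was listed at 0 in the 3 low libraries, and at 1.11, 1.76 and 1.44 FPKM in bone replicate 3 and osteoblasts replicates 2 and 3. It was the only member with a mean below 1 FPKM and the only one left out of the test.

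H2B was led by 2 merged features, *Hist1h2bc* over 6 genes and *Hist1h2bh* over 13, which measured 56.1 to 116 and 26.1 to 83.4 FPKM in the low libraries. *Hist1h2bc* reached 4284 and *Hist1h2bh* 3814, both in osteoblasts replicate 2. *Hist1h2bl*, whose feature overlaps no other, measured 43.5, 20.8 and 1968 FPKM in bone replicates 1 to 3 and 17.1, 1856 and 1333 in osteoblasts replicates 1 to 3. *Hist1h2bg* measured 44.3, 19.1 and 1390 in bone and 21.6, 1421 and 1056 in osteoblasts. *Hist1h2ba*, named for the testis, was well above the floor, with 11.2, 4.04 and 495 in bone and 5.50, 490 and 393 in osteoblasts. Of the 75-base stretches of its coding sequence, 33.2% are found in 13 other H2B genes. How much of its level is its own was not tested. *Hist3h2ba* on chromosome 11 was near or below the floor in the low libraries, at 1.16 and 0 FPKM in bone replicates 1 and 2 and 0.121 in osteoblasts replicate 1, and measured 253, 249 and 191 FPKM in the high ones. *Hist3h2a* beside it showed 0.148, 2.65 and 239 FPKM under bone (replicates 1 to 3) and 4.16, 223 and 175 under osteoblasts.

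*Hist1h2bq* stood apart within H2B, with 68.2, 4.97 and 2400 FPKM in bone replicates 1 to 3 and 4.62, 397 and 294 in osteoblasts replicates 1 to 3. Its FPKM in bone replicate 3 was 6.04 times that in osteoblasts replicate 2, while the median ratio of these libraries over all members was 1.00. The deposited coverage did not show that gap. Per Gb of aligned bases it was 291 in bone replicate 3, 300.5 in osteoblasts replicate 2 and 223 in osteoblasts replicate 3. The feature of *Hist1h2bq* overlaps 2 other features, and every 75-base stretch of its coding sequence is found in another histone gene. The FPKM of this gene was therefore read as uncertain.

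Among H3 genes, *Hist1h3c* (a feature over 7 genes) measured 55.4, 24.6 and 2446 FPKM in bone replicates 1 to 3 and 26.4, 2305 and 1571 in osteoblasts replicates 1 to 3. *Hist1h3b* measured 36.7, 14.4 and 1508 in bone and 14.5, 1354 and 1025 in osteoblasts. *Hist1h3i* and *Hist1h3h* reached 1160 and 1085 FPKM in osteoblasts replicate 2 from 14.4 and 14.5 in osteoblasts replicate 1. The H1 genes encode the linker histones that bind DNA between nucleosomes. *Hist1h1d*, merged over 23 genes, measured 68.3, 25.1 and 2666 in bone and 28.8, 3145 and 2289 in osteoblasts. *Hist1h1c* measured 87.4, 33.5 and 1920 in bone and 44.0, 1696 and 1332 in osteoblasts, and *Hist1h1b* 46.2, 18.2 and 1904 in bone and 22.0, 1679 and 1349 in osteoblasts. The testis type *Hist1h1t* lies among these genes but measured at most 5.58 FPKM, and it was at 0.234 and 0.340 FPKM in bone replicates 1 and 2, with 0 in osteoblasts replicate 1.

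**Figure D2:**
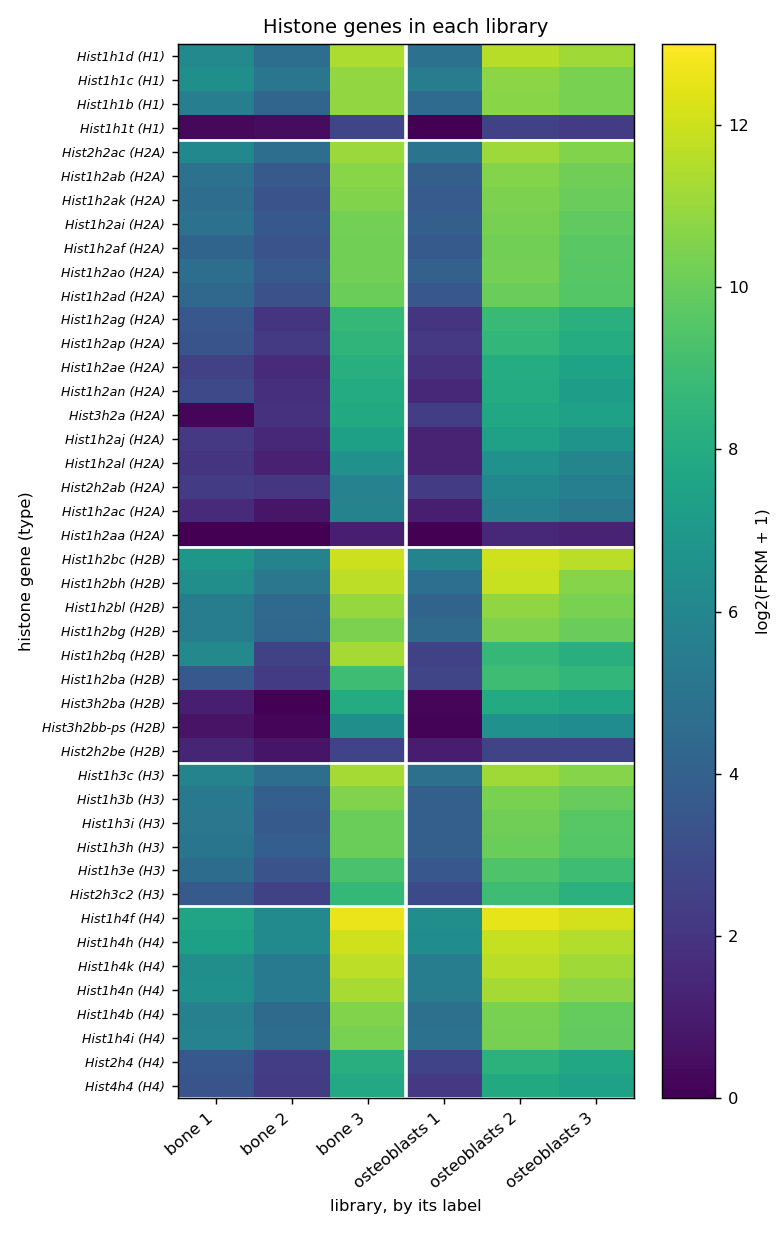
Heat map of log2(FPKM + 1) for the 44 histone genes (rows, by type and then by mean FPKM) in the 6 libraries (columns, by label). Bone replicate 3 and osteoblasts replicates 2 and 3 are the brighter columns for every gene; *Hist1h1t*, *Hist1h2aa* and *Hist2h2be* stay dark.

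All 44 members had their 3 highest values in bone replicate 3 and osteoblasts replicates 2 and 3. Among the 43 members tested (mean FPKM of at least 1) it was 43, while 38.4% of the 12112 genes tested showed this order. A stricter count asked for an FPKM at least 10 times higher in bone replicate 3 than in each other bone library and in osteoblasts replicates 2 and 3 than in osteoblasts replicate 1. It was met by 42 of the 43 tested members, against 6.51% of all genes tested. The exception, named after its values were seen, was *Hist2h2be*, with 1.56, 0.681 and 5.05 FPKM in bone replicates 1 to 3 and 1.04, 5.29 and 5.08 in osteoblasts replicates 1 to 3. Its feature spans 2620 bases and its ratios were 3.24 and 7.42 in bone and 5.09 and 4.88 in osteoblasts. No floor was applied in the stricter count, for members or for all genes. *Hist1h1t*, *Hist3h2a*, *Hist3h2ba* and *Hist3h2bb-ps* met it from values under the floor in at least 1 low library, so their ratios are uncertain. Of the 44 members 23 were highest in bone replicate 3, 21 in osteoblasts replicate 2 and 0 in osteoblasts replicate 3. The share over all genes was not counted for this either, so it is not read as a trait of histone genes. Within the low libraries, 40 members were higher in bone replicate 1 than in both bone replicate 2 and osteoblasts replicate 1. For that count, too, the share over all genes is missing, and gene lists read below were also higher in bone replicate 1. The sum in bone replicate 1 over that in bone replicate 2 was 2.47 for histone members and 2.70 for replication-independent histone genes. For S phase genes it was 2.18, and for macrophage markers 1.98. Coverage per Gb gave the same 3 highest libraries for 44 of the 44 members. For 33 of them it was within 1 percent of FPKM in every library above 0, so for these it is no separate check.

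The size of the ratio varied by type. The median member ratio of bone replicate 3 to bone replicate 1 was 46.1 for H2A, 39.4 for H2B, 34.1 for H3, 31.4 for H1 and 27.1 for H4. Between osteoblasts replicates 2 and 1 it was 102 for H2A, 89.1 for H2B, 78.1 for H3, 76.4 for H1 and 58.7 for H4. H2A had the highest and H4 the lowest median in these comparisons and in the other two, while H1 and H3 changed places in the last of them. For bone replicate 3 over 2 the medians were 103 (H2A), 95.2 (H2B), 89.7 (H3), 80.9 (H1) and 68.1 (H4), and for osteoblasts replicate 3 over 1 they were 70.4 (H2A), 63.6 (H2B), 61.4 (H1), 52.9 (H3) and 41.7 (H4). Near-identical genes share reads, so members of a type are not independent. Over all members with a value in both libraries the medians were 38.4 (bone replicate 3 over 1), 91.0 (bone replicate 3 over 2), 78.7 (osteoblasts replicate 2 over 1) and 55.5 (osteoblasts replicate 3 over 1).

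**Figure D3:**
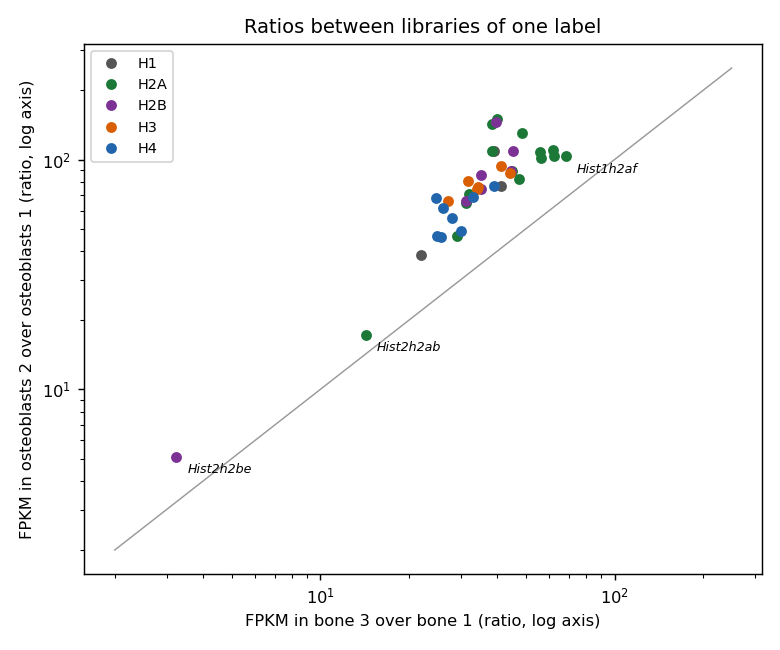
Each dot is 1 of 39 histone genes, with the ratio of its FPKM in bone replicate 3 to bone replicate 1 on the x axis and in osteoblasts replicate 2 to osteoblasts replicate 1 on the y axis (log axes; the line marks equal ratios). The other 5 genes were under the floor in bone replicate 1 or osteoblasts replicate 1; all 39 dots lie above the line, between 3.24 and 68.2 on the x axis and 5.09 and 150 on the y axis.

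The question the labels pose is whether histone genes differed between bone and osteoblasts. No member passed the test of that difference. limma on log2(FPKM + 1) called 0 of 12112 genes (0.0%) at an adjusted p under 0.05, and 17 (0.14%) had an unadjusted p under 0.05. Of the 43 members tested, 0 passed either threshold. Their log2 fold changes, osteoblasts over bone, ran from -0.20 to 2.55 with a median of 1.57, beside a median of 0.12 over all genes tested, and 42 of the 43 were above 0, as were 62.6% of all genes. Their SE ran from 0.63 to 2.41, and their adjusted p was 0.999 throughout. The sum over the 44 genes was 20552 ± 33562 FPKM (SD, n = 3) under the label bone and 32440 ± 28645 FPKM (SD, n = 3) under osteoblasts. The log2 ratio of these means was 0.66, smaller than the SD of the log2 sums within labels, which was 3.43 when pooled over both labels. No member had labels that did not overlap, against 0.916% of all genes tested.

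Single genes showed the same spread. *Hist1h4k* had 1148 ± 1881 FPKM (SD, n = 3) under bone and 1861 ± 1650 FPKM (SD, n = 3) under osteoblasts, with a log2 fold change of 1.60 ± 1.95 (SE; limma adjusted p = 0.999). The largest positive log2 fold changes were those of *Hist3h2a* (2.55 ± 2.00), *Hist3h2ba* (2.21 ± 2.41) and *Hist1h2af* (1.95 ± 2.07). Of these, *Hist3h2a* has limits like those of *Hist1h2bq*. Its feature spans 18414 bases and overlaps 4 other features, and every 75-base stretch of its coding sequence is found in another gene. Its coverage per Gb fell below its FPKM in every library. The values were 59.8 against 239 for bone replicate 3, and 1.05 against 4.16 for osteoblasts replicate 1. The fold change of *Hist3h2a* was therefore read as uncertain. A single member was below 0, *Hist1h2bq* at -0.20 ± 2.19. The result rested on which libraries were in the fit. Without osteoblasts replicate 1, limma called 22 of the 43 members (2.48% of all genes), and without bone replicate 3 it called 1, *Hist3h2a* (0.636% of all genes), all higher under osteoblasts. Leaving out any other library gave 0 calls among members.

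**Figure D4:**
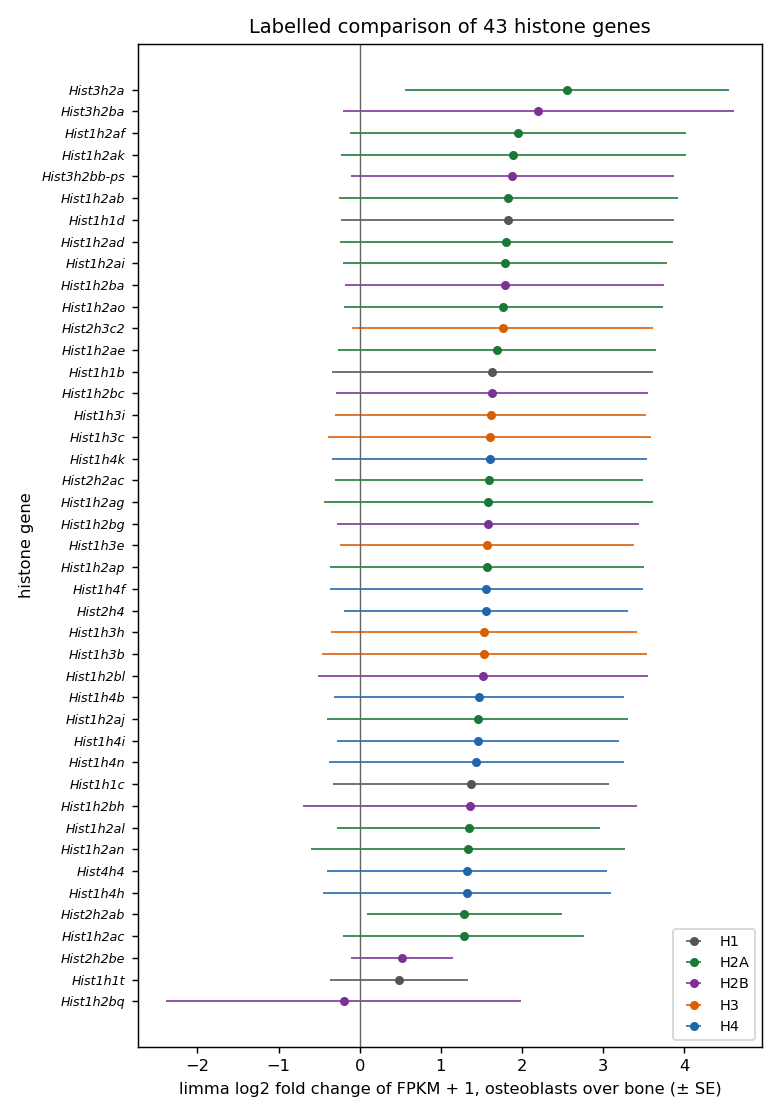
limma log2 fold change of FPKM + 1, osteoblasts over bone (x axis), with its SE (bars), for the 43 histone genes tested, ordered by value and coloured by type. Bars of 1 SE cross 0 for all but *Hist3h2a* and *Hist2h2ab*, values run from -0.20 to 2.55, and the adjusted p is 0.999 for each.

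Genes that work with histones were read from lists of their own. For each list the count is of tested genes whose 3 highest values were in bone replicate 3 and osteoblasts replicates 2 and 3, to be read against 38.4% of all genes tested, and none of these genes passed limma between the labels. Of 10 genes for histone mRNA transcription, 3′ processing and decay, 1 had that order. It was *Slbp*, which binds the stem-loop, with 11.5, 6.51 and 29.6 FPKM in bone replicates 1 to 3 and 8.20, 36.7 and 45.4 in osteoblasts replicates 1 to 3. *Lsm11*, a protein of the U7 particle that cuts the 3′ end, measured 1.57, 0.632 and 1.22 in bone and 0.907, 1.29 and 1.60 in osteoblasts. The sum of this list in bone replicate 3 was 1.06 times that in bone replicate 1 and 2.27 times that in bone replicate 2, where the histone ratios were 35.4 and 87.3. In osteoblasts replicates 2 and 3 it was 1.75 and 1.84 times that in osteoblasts replicate 1, where the histone ratios were 74.1 and 52.5. Of 13 histone chaperones, 7 had the order and 1, *Nap1l1*, the reverse. The chaperone sum in bone replicate 3 was 1.09 and 2.33 times that in bone replicates 1 and 2. In osteoblasts replicates 2 and 3 it was 1.97 and 2.01 times that in osteoblasts replicate 1. *Asf1b*, the highest of the list by mean, measured 35.0, 15.4 and 61.3 in bone and 22.0, 60.6 and 62.9 in osteoblasts. *Chaf1b*, a subunit of the assembly factor that follows the replication fork, differed more, at 3.05, 1.37 and 24.1 in bone and 2.42, 24.1 and 20.4 in osteoblasts.

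DNA replication and S phase genes showed the order in 18 of 19. *Mcm5*, a subunit of the replicative helicase, measured 10.2, 4.38 and 109 FPKM in bone replicates 1 to 3 and 5.60, 106 and 97.3 in osteoblasts replicates 1 to 3. *Pcna*, the sliding clamp of DNA polymerase, measured 35.0, 17.1 and 62.2 in bone and 16.0, 102 and 94.4 in osteoblasts. *Rrm2*, which supplies deoxynucleotides, measured 11.6, 4.83 and 54.6 in bone and 4.48, 74.2 and 72.0 in osteoblasts. Mitosis genes had it in 8 of 9. The sums of these lists differed between the libraries by less than the histone sum did. The ratio of the histone sum to the S phase sum was 9.84, 8.71 and 83.9 in bone replicates 1 to 3 and 7.85, 68.3 and 52.2 in osteoblasts replicates 1 to 3. To the mitosis sum it was 33.7, 31.6 and 225 in bone and 31.0, 190 and 140 in osteoblasts.

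Replication-independent histone genes mostly encode variants made through the whole cell cycle, and 7 of the 10 tested had the order. Of these, the largest difference was in *H2afx*, the variant phosphorylated at DNA breaks, whose gene is known to give both a stem-loop and a polyadenylated mRNA. It measured 10.2, 4.06 and 367 FPKM in bone replicates 1 to 3 and 5.96, 398 and 266 in osteoblasts replicates 1 to 3. *Cenpa* also differed widely, with 3.37, 1.63 and 34.6 in bone and 2.87, 35.4 and 34.1 in osteoblasts. *H3f3b*, which encodes H3.3, measured 61.0, 29.3 and 71.4 in bone and 38.8, 96.6 and 95.5 in osteoblasts, and *H2afz* 17.2, 10.8 and 50.0 in bone and 9.90, 48.3 and 41.7 in osteoblasts. The histone members were 7.71, 8.44 and 84.1 times the sum of this list in bone replicates 1 to 3, and 6.62, 71.2 and 57.1 times in osteoblasts replicates 1 to 3. Of other RNAs without a poly(A) tail, 5 of 5 tested had the order, though not by like amounts. Their sum in bone replicate 3 was 1.54 times that in bone replicate 1 and 2.97 times that in bone replicate 2. In osteoblasts replicates 2 and 3 it was 2.84 and 2.42 times that in osteoblasts replicate 1. *Rn7s1*, an RNA of the signal recognition particle, measured 170517, 89943 and 210059 FPKM in bone and 88965, 210002 and 173110 in osteoblasts, so that bone replicate 1 lay just below osteoblasts replicate 3. *Rn7sk* measured 25451, 13042 and 93517 FPKM in bone and 13375, 82762 and 75341 in osteoblasts. *Terc*, the RNA of telomerase, measured 1.71, 0.442 and 46.5 in bone and 0.526, 52.0 and 37.8 in osteoblasts.

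**Figure D5:**
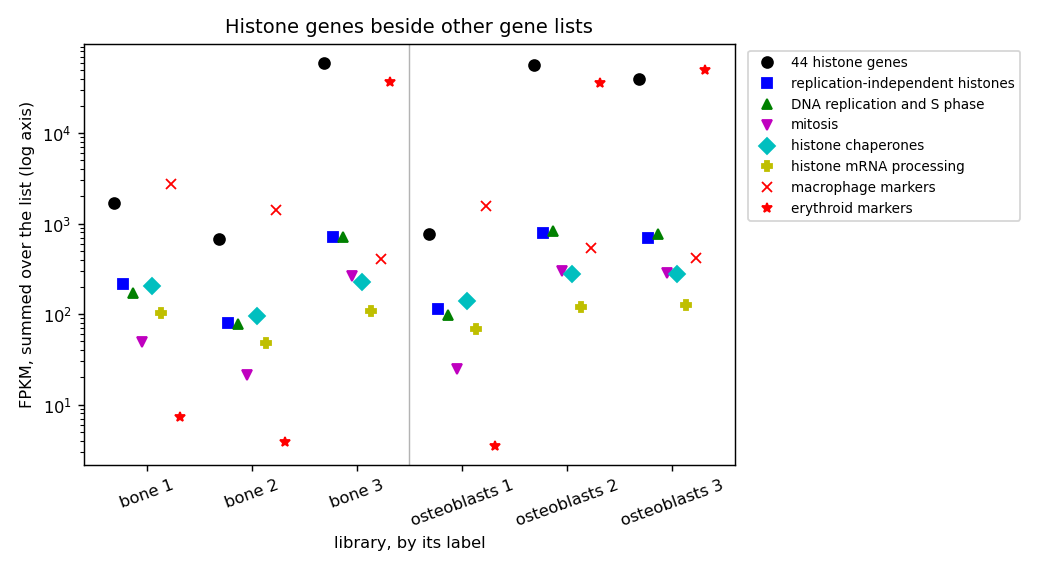
Summed FPKM (log axis) of the 44 histone genes and of 7 other gene lists in the 6 libraries, by label. Histone genes run from 679 to 59301, S phase genes from 78.0 to 827, genes of histone mRNA processing from 48.3 to 126 and macrophage markers from 403 to 2762.

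Markers of other cell types moved in the same libraries. The order was shown by 6 of 6 erythroid markers. *Hbb-bt*, used above to part the libraries, is among them, so its order was fixed beforehand. It was also shown by 7 of 7 neutrophil, 7 of 7 B cell, 3 of 3 skeletal muscle and 3 of 3 endothelial markers. Their summed FPKM in the other 3 libraries ran from 3.53 to 7.29 for erythroid, 0.430 to 5.51 for neutrophil and 0 to 0.429 for B cell markers. In bone replicate 3 and osteoblasts replicates 2 and 3 it ran from 35889 to 50387, 14246 to 17225 and 143 to 151. Most of the erythroid sum was *Hbb-bt* itself. *Epb42*, *Elane* and *Cd79a*, which mark the erythroid, neutrophil and B cell lineages, were at 0 in the 3 low libraries. All 6 macrophage markers had their 3 lowest values in bone replicate 3 and osteoblasts replicates 2 and 3, with sums of 403 to 533 FPKM there and 1397 to 2762 in the others. Of 7 osteoblast markers, 1 had the order of the histone genes and 2 the reverse, and of 3 osteocyte markers tested it was 1 and 1. The part of these cell types in the histone values was not tested.

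How the tables split reads limits what single members show. Counted by position on either strand, features of 36 members cover 1 RefSeq histone gene each, and those of 8 cover 2 or more. The 36 over 1 RefSeq histone gene gave sums of 915, 363 and 33678 FPKM in bone replicates 1 to 3 and 420, 30698 and 22230 in osteoblasts replicates 1 to 3, the same order as all 44. Most of the 36 still overlap other features, since only 5 of the 44 members overlap none. Of 70 RefSeq genes of these clusters, 26 have no feature of their own name, and their positions lie in merged, unnamed or other named features. The 7 unnamed features over histone genes summed to 228, 95.7 and 9445 FPKM in bone and 104, 12271 and 8795 in osteoblasts. One of them, on chromosome 13, was at 5.07 FPKM in bone replicate 3 and 2287 in osteoblasts replicate 2, so the tables do not split this locus alike in every library. Reads can also fall on more than 1 gene: 34 of 41 members share at least 1 stretch of 75 bases, the read length, with another gene, and 27 share over 50% of them. The median share was 71.6% for H2A, 65.5% for H2B, 78.3% for H3, 62.4% for H4 and 8.76% for H1. *Hist2h2be*, *Hist2h4*, *Hist4h4*, *Hist3h2ba*, *Hist1h1b*, *Hist1h1t* and *Hist1h2aa* share none, and they had the same 3 highest libraries as the other members.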

How the data were processed

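RNA-seq was made from 3 libraries labelled bone and 3 labelled osteoblasts. Per the labels and the study's methods, RNA was isolated with an RNeasy kit (the culture protocol names mirVana for cells), libraries were made with TruSeq RNA Library Prep Kit v2, which does not mark strand (whether poly(A) selection was done is not settled by the sources used here), and 75 bp paired reads were aligned to GRCm38 with HISAT2 2.0.5 and quantified with StringTie 1.3.3; the submitters' processing notes also name SAMtools 1.7. The authors deposited, per feature and library, the coverage (a signal), FPKM scaled to all aligned reads and TPM, with no counts. Overlapping and antisense genes, and genes with near-identical copies, are therefore uncertain.

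Labels gave each library its group and replicate number. The study gives 3 mice, but the sources used here tie no library to a mouse, so p-values measure the spread between these libraries. Rows of one name were summed. Depth was taken from the modal coverage per FPKM unit, at 150 bases per pair. The 12112 genes whose FPKM averaged 1 or more entered limma on the scale log2(FPKM + 1), which understates changes of low genes. The test was limma 3.58.1 in R 4.3.3 (lmFit, eBayes with a trend), no covariates and Benjamini-Hochberg adjustment at 0.05. limma was first run on simulated data whose spread was far smaller than that of the histone genes. That run checks the code and does not measure the power of the test here. The histone genes were never tested as a set, and libraries parted by *Hbb-bt* were never averaged or tested, since that split comes from the data.

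Members and gene lists were chosen with earlier results of these data known. Named genes were the 4 members of each type with the highest mean FPKM, any called by limma, the 3 largest positive and negative fold changes, and the testis types; others were named after their values were seen. Promoters are RefSeq, GRCm38.p6; transcripts are GENCODE vM1, NCBIM37, matched by name and not by position. Python 3.11.15, pandas 2.3.3 and matplotlib 3.10.9 were used. Alternatives were another pseudocount (0.1), filter, unit or scaling, no trend, a replicate block and leaving out each library; the restriction to members with 1 RefSeq histone gene per feature was added after seeing the data.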

Additional observations from a re-analysis of the deposited data

How the results depend on the processing

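Members were called in 3 alternatives only. The replicate block gave 49 genes (46 of them higher under osteoblasts) and 1 member, *Hist3h2a*, at a limma adjusted p of 0.027. The FPKM of *Hist3h2a* is uncertain, as given above. In that fit 501 genes and 33 members had an unadjusted p under 0.05. The labels do not say that replicate numbers pair libraries, so the block was an alternative only. Same-numbered libraries deviated together for replicates 1 and 3 (r = 0.84 and 0.83 over 12112 genes) but not for replicate 2 (r = -0.75). These signs follow which libraries were high or low within each label, so they cannot show whether numbers are pairs. Leaving out 1 library gave 0 to 300 calls over all genes and 0 to 22 among members; 77 and 1 came without bone replicate 3, and 300 and 22 without osteoblasts replicate 1. The log2 ratio of the summed histone FPKM, 0.66 with all libraries, ran from -0.011 (without osteoblasts replicate 2) to 4.78 (without bone replicate 3). It stayed between 0.43 and 0.71 with TPM, scaling to named genes, the highest row of each name, members that overlap no other feature, members with 1 RefSeq histone gene, or as a ratio to replication-independent histone genes. All other alternatives called 0 genes, with 17 to 173 at an unadjusted p under 0.05. Scaling to named genes moved the median log2 fold change of all genes from 0.12 to -0.03, and that of members from 1.57 to 1.39. Among the named genes, 336 of 350 values kept their direction and side of the threshold and 11 passed it. Without osteoblasts replicate 2, *Hist1h2bh* turned from 1.36 to -0.035, in a range up to 3.53 over the left-out libraries; *Hist1h2bq* turned from -0.20 to 2.10 without bone replicate 3 and 1.78 without osteoblasts replicate 1, in a range from -2.23. The cause was not tested. Depth limits members under about 0.5 FPKM in the low libraries, and no interval can be given without counts.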
